A study of Mus musculus with 58 samples.

Results

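Transcript levels of 9 genes that make or clear the amyloid-beta peptide were followed in brain tissue of 58 mice after traumatic brain injury (TBI) or sham surgery. The genes were taken by symbol from a table of 15171 genes, and all 9 of 9 were listed and passed the filter on low counts. They are *App*, the amyloid precursor protein, *Adam10* and *Bace1*, which cut it first, *Psen2*, *Ncstn*, *Aph1a* and *Psenen*, which belong to the gamma-secretase complex, and *Mme* and *Ide*, which degrade the peptide.

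The mice were on a C57BL/6 background, and every mouse, controls included, carried a human *APOE* gene in place of the mouse gene, either *APOE3* or *APOE4*. Within each isoform, mice had both copies of *Abca1* (E3/Abca1+/+, E4/Abca1+/+) or 1 copy (E3/Abca1+/-, E4/Abca1+/-). *Abca1* encodes a transporter that loads lipid onto APOE, and its deficiency was carried by all cells, not by a chosen cell type. At 3 months of age mice received a controlled cortical impact, in which a metal tip strikes the exposed cortex, or the same craniotomy without impact. Cortex and hippocampus at the site were collected as 1 sample 14 days later as 1 library per mouse. There were 8 sham and 8 TBI mice in E3/Abca1+/+, 7 and 6 in E3/Abca1+/-, 7 and 7 in E4/Abca1+/+, and 7 and 8 in E4/Abca1+/-, of both sexes.

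Amyloid-beta is released when APP, a membrane protein abundant in neurons, is cut by beta-secretase (BACE1) and then by gamma-secretase. Gamma-secretase needs a presenilin as its catalytic part together with nicastrin (*Ncstn*), an APH1 protein and PEN-2 (*Psenen*). A cut by alpha-secretase, chiefly ADAM10 in neurons, falls inside the amyloid-beta sequence and so precludes it. Neprilysin (*Mme*) and insulin-degrading enzyme (*Ide*) are peptidases that break down the released peptide. APP accumulates in injured axons, which is why this pathway is studied after head injury.

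The libraries held 4421308 to 37877346 counts. The Abca1+/- libraries were deeper than the Abca1+/+ libraries by a ratio of medians of 2.26, and 21 of 28 of them were deeper than every Abca1+/+ library, so copy number and depth cannot be told apart. Markers of neurons (12 of 12 listed), microglia (11 of 11) and astrocytes (8 of 8) were present in every mouse. In the sham mice, *Abca1* was lower with 1 copy in *APOE3* mice (35.3 ± 3.84 against 48.5 ± 6.92 CPM, SD, n = 7 and 8), with a log2 fold change of -0.45 (adjusted p = 0.00933). In *APOE4* sham mice it had 35.8 ± 4.86 against 45.6 ± 6.42 CPM (n = 7 each, log2 fold change -0.35, adjusted p = 0.0783), and among injured mice the log2 fold change was -0.71 in *APOE3* (adjusted p = 0.118) and -0.19 in *APOE4* mice (adjusted p = 0.724), so 1 of the 4 settings passed. CPM scale each count by the total of its library and edgeR's TMM factor, and adjusted p-values come from edgeR's quasi-likelihood test with Benjamini-Hochberg adjustment over all 15171 genes, with 0.05 as the threshold.

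1 library stood apart for *App* itself. E4/Abca1+/- TBI replicate 6, a male and the deepest library, had 4854 CPM of *App* (188347 counts), against 1673 to 2241 CPM in the other 57 mice, which is 2.38 times their median of 2039.7 CPM. *Prnp*, which encodes the prion protein, had 3434 CPM in this mouse and 932 to 1246 CPM in the other 57, or 3.21 times their median. Among the 2344 genes with a mean of at least 100 CPM in the other mice, *Prnp* and *App* were the 2 that exceeded their highest level elsewhere by more than 1.5 times in this library. In 3 of the other 57 mice any gene passed the same rule. The remaining 8 genes of the pathway lay within the range of the other mice in this library, *Bace1* for example at 126 CPM and *Adam10* at 87.7 CPM. *Prnp* regulatory sequence is commonly used to drive *App* transgenes in mouse models of amyloid deposition, while the labels of this mouse list no such transgene, and the counts do not separate transcripts of a transgene from those of the resident gene. Neither the source of this level nor the label of the library was tested, which bears on every value of the E4/Abca1+/- TBI group that includes it. The injury results for *App* in E4/Abca1+/- mice and in the mean over genotypes are given with and without this mouse, a step chosen after its values were seen.

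**Figure D1:**
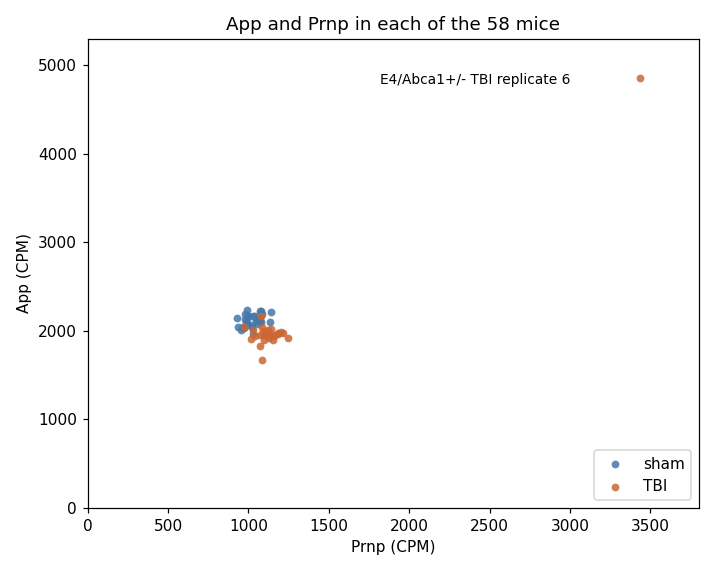
Level of *App* (vertical axis, CPM) against *Prnp* (horizontal axis, CPM) in each of the 58 mice, with sham mice in blue and TBI mice in orange. E4/Abca1+/- TBI replicate 6 lies at 3434 CPM of *Prnp* and 4854 CPM of *App*, apart from the other 57 mice.

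The 9 genes lie on 6 chromosomes of the mouse genome (GRCm38). *App* spans chr16:84949685-85173766 and *Ide* chr19:37268743-37337852, both on the minus strand. *Adam10* (chr9:70678997-70780229) and *Bace1* (chr9:45838580-45864399) share a chromosome and are on the plus strand. *Ncstn* (chr1:172066013-172082795) and *Psen2* (chr1:180227004-180263438) share chromosome 1, on the minus strand. *Aph1a* (chr3:95893969-95898288) and *Mme* (chr3:63241537-63386030) share chromosome 3, on the plus strand, and *Psenen* lies at chr7:30561863-30563627 on the minus strand. For 4 of the genes a share of the exonic bases also belongs to a coding gene on the other strand: 15.4% for *Bace1* (*Rnf214*), 12.9% for *Aph1a* (*Car14*), 9.33% for *Psenen* (*U2af1l4*) and 4.91% for *Ncstn* (*Copa*). Whether reads were counted by strand is not given in the sources used here, so reads from these stretches cannot be assigned with certainty.

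Sequence upstream of 3 genes is shown because *App* is the precursor and *Adam10* and *Ncstn* are the genes for which injury gave the smallest adjusted p-values of the 9. RefSeq promoters (GRCm38.p6) matched 8 of the 9 genes, 5 of them with 1 start site; *Bace1* had no entry. Each stretch holds 190 bases, from 250 to 61 bases before the start site, 5′ to 3′ on the gene's own strand. Capitals mark GC boxes (GGGCGG) and CCAAT boxes (CCAAT) on either strand, and TATA boxes (TATAAA) and E-boxes (CACGTG) were searched in the same way. *App* is read from chr16:85173768-85173957 (minus strand), *Adam10* from chr9:70678732-70678921 (plus strand) and *Ncstn* from chr1:172082810-172082999 (minus strand).
App: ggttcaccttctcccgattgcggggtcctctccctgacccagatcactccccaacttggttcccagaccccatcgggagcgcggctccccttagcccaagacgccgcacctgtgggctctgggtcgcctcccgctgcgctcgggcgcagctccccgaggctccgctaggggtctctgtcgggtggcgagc
Adam10: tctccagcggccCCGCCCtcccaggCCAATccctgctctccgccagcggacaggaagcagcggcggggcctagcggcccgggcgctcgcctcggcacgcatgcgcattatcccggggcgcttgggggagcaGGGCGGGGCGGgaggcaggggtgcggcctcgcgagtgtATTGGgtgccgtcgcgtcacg
Ncstn: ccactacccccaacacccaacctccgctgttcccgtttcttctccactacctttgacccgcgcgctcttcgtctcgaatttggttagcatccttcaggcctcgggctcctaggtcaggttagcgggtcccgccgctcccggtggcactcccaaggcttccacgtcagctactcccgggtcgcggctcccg

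The *Adam10* stretch held 3 GC boxes, of which a pair overlap, and 2 CCAAT boxes. The *App* and *Ncstn* stretches held 0 matches to the 4 motifs. Of all 32851 promoter stretches of this length, 22.8% held a GC box, 26.7% a CCAAT box, 8.73% a TATA box and 4.03% an E-box. The share of G and C was 69.5% for *App*, 75.3% for *Adam10* and 63.7% for *Ncstn*, against a median of 51.6% over all stretches. Bases nearer to the start site than these stretches were not searched, so a motif there, such as a TATA box, would be missed. These matches describe the letters only.

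To compare genes with each other, levels were scaled by transcript length (TPM, from the median length of a gene's coding transcripts). Over the 57 mice without E4/Abca1+/- TBI replicate 6, *App* had 1676 ± 82.4 TPM (SD), above 99.8% of all genes with a length. *Bace1* followed at 69.7 ± 4.06 TPM, 24 times lower. *Ncstn* had 67.3 ± 5.19 TPM and *Adam10* 55.9 ± 4.12 TPM. The TPM ranges of *Bace1* and *Ncstn* overlapped, with *Bace1* above *Ncstn* in 43 of 57 mice. *Ide* had 31.1 ± 2.36, *Psen2* 21.3 ± 2.46, *Psenen* 15 ± 3.09, *Mme* 6.48 ± 1.34 and *Aph1a* 5.90 ± 1.14 TPM. The ranges of neighbours in this order did not overlap for *App* over *Bace1* and for *Adam10* over *Ide*. *Mme* exceeded *Aph1a* in 36 of 57 mice, so the order of the lowest pair is not settled. With the longest coding transcript in place of the median, *App* had 817 TPM over all 58 mice. *Aph1a* and *Psenen* rest on few reads, as low as 17 and 13 counts in a mouse, while *App* had at least 9282.

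Group means of each gene differed little across the 8 groups. Without E4/Abca1+/- TBI replicate 6, the highest group mean over the lowest was 1.05 for *Ide* (CPM scale), 1.11 for *App*, 1.14 for *Adam10*, 1.16 for *Bace1*, 1.18 for *Aph1a*, 1.2 for *Psen2*, 1.22 for *Ncstn*, 1.24 for *Mme* and 1.32 for *Psenen*. E4/Abca1+/- TBI mice had the highest mean of *Psen2* and *Ncstn* and the lowest mean of *Bace1* and *Mme*.

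**Figure D2:**
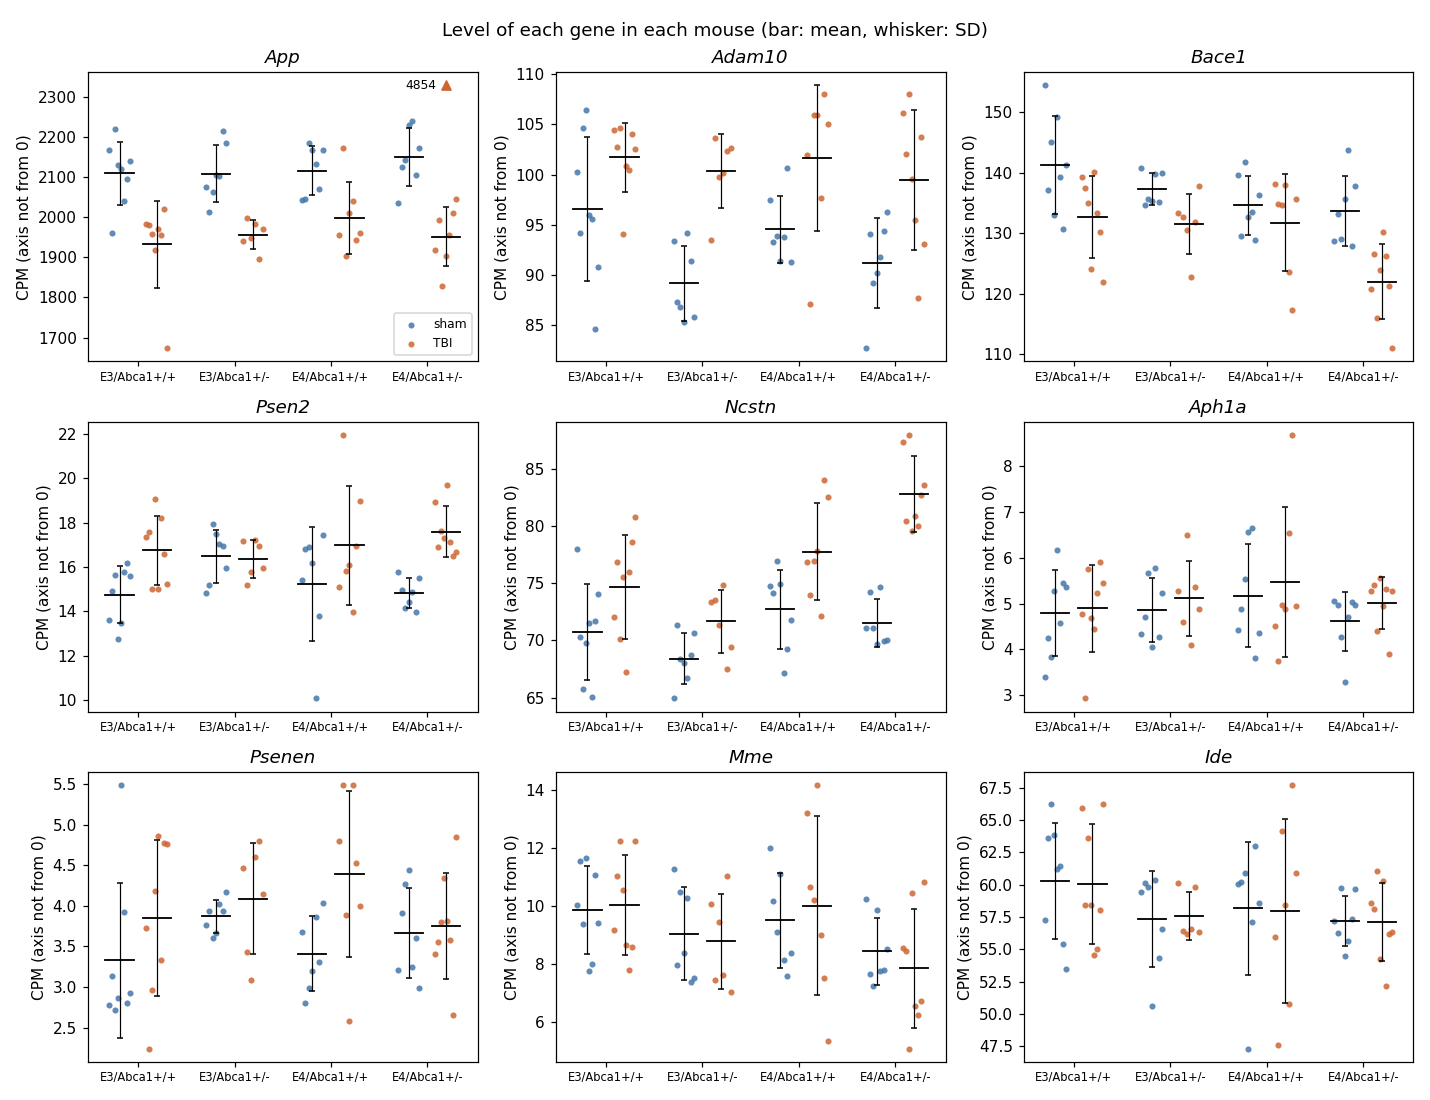
Level of each of the 9 genes (vertical axes, CPM, not starting at 0) in each mouse of the 4 genotypes, with sham in blue and TBI in orange, bars for the group mean and whiskers for the SD. In the *App* panel the triangle at the upper edge stands for E4/Abca1+/- TBI replicate 6 at 4854 CPM, which is off scale and left out of that bar and whisker.

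The first comparison asked whether injury changed these transcripts. Averaged over the 4 genotypes (29 TBI and 29 sham mice), 4 of the 9 genes rose after TBI (*Adam10*, *Psen2*, *Ncstn*, *Psenen*), against 29% of all genes, and 1 fell (*Bace1*), against 24.3% of all genes. The share of members called is thus near that of the whole table. The changes were small, from -5.31% for *Bace1* to 12.8% for *Psenen*. Across the 9 genes the log2 fold changes had a median of 0.09, beside 0.01 for the whole table. Without E4/Abca1+/- TBI replicate 6, *App* was also called lower, and 29.1% of all genes were then higher and 24.6% lower. In bulk tissue, fewer cells of a type and less RNA per cell cannot be told apart.

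*App*, the precursor, was lower after TBI in the *APOE3* genotypes. In E3/Abca1+/- mice it had 2012, 2104 and 2216 CPM (lowest, median and highest of 7 sham mice) and 1896, 1960.3 and 1998.8 CPM in the 6 TBI mice. All 6 injured mice lay below every sham mouse. The log2 fold change was -0.11 (95% interval -0.17 to -0.05, adjusted p = 0.0115). In E3/Abca1+/+ mice, sham levels were 1962, 2126 and 2219.9 CPM, and TBI levels 1673, 1964 and 2021 CPM. The groups overlapped, with 4 of 8 injured mice below every sham mouse, and the log2 fold change was -0.14 (adjusted p = 0.0201). The lowest value was that of E3/Abca1+/+ TBI replicate 8 (1673 CPM, others of its group 1918 to 2021 CPM), and no fit without this mouse was run. Both *APOE3* calls were lost in a single fit over all 58 mice (adjusted p = 0.554 and 0.371), which includes replicate 6 of the E4/Abca1+/- TBI group, and the cause was not tested.

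In E4/Abca1+/- mice the result for *App* turned on that library. Sham mice of this genotype had 2035, 2143 and 2241 CPM, and the 8 TBI mice 1829.7, 1974 and 4854 CPM. 6 of the 8 injured mice lay below every sham mouse and 1 lay above. With all 8 mice the log2 fold change was 0.08 (95% interval -0.29 to 0.45, adjusted p = 0.772). Without replicate 6 it was -0.17 (95% interval -0.24 to -0.10, adjusted p = 0.00105), so 1 library turned the direction and the call. E4/Abca1+/+ sham mice had 2043, 2134 and 2186 CPM, and TBI mice 1904, 1959.6 and 2173 CPM. Here 6 of 7 injured mice lay below every sham mouse, and the log2 fold change of -0.09 did not pass the threshold (95% interval -0.16 to -0.01, adjusted p = 0.114). Averaged over genotypes, *App* had a log2 fold change of -0.05 with all mice (adjusted p = 0.402) and -0.11 without replicate 6 (95% interval -0.15 to -0.08, adjusted p = 1.68e-08).

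*Adam10*, the alpha-secretase, rose over the 4 genotypes by a log2 fold change of 0.12 (95% interval 0.07 to 0.16, adjusted p = 5.56e-06). Sham mice had 82.7, 93.4 and 106 CPM (lowest, median and highest of 29) and TBI mice 87.2, 102 and 108 CPM (n = 29), so the ranges overlapped. The rise passed within E3/Abca1+/- mice, where sham levels were 85.3, 87.3 and 94.2 CPM and TBI levels 93.5, 101 and 104 CPM. There 5 of 6 injured mice exceeded every sham mouse (log2 fold change 0.17, adjusted p = 0.00197). In the other genotypes the log2 fold change was 0.06 to 0.10 and did not pass. In E4/Abca1+/- mice it passed without replicate 6 (log2 fold change 0.12, adjusted p = 0.0391).

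*Bace1*, the beta-secretase, fell over the 4 genotypes by 0.08 on the log2 scale (95% interval -0.12 to -0.04, adjusted p = 0.000329). In E4/Abca1+/- mice, sham levels were 128, 133 and 144 CPM and TBI levels 111, 123 and 130.1 CPM. 7 of the 8 injured mice lay below every sham mouse, and the log2 fold change was -0.16 (95% interval -0.24 to -0.08, adjusted p = 0.00497). The lowest value, 111 CPM, was that of E4/Abca1+/- TBI replicate 8. This library had 455 CPM of summed striatal markers (others of its group 75.4 to 101 CPM) and 303 CPM of hippocampal markers (others 449 to 533 CPM). The part of this in the fall was not tested. The other 3 genotypes had log2 fold changes of -0.11 to -0.04 that did not pass. Thinning every library to the lowest total ended the E4/Abca1+/- call (adjusted p = 0.108).

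The opposite directions of *Bace1* and *Adam10* can be read as a ratio of their length-scaled levels in the same mouse. This ratio is a description built from both results above. It was 1.34 ± 0.0804 in sham mice (SD, n = 29, range 1.14 to 1.48) and 1.17 ± 0.0930 in TBI mice (n = 29, range 0.977 to 1.41). Its mean was lower after TBI in each genotype, with the smallest difference in E4/Abca1+/+ mice (1.297 in sham, 1.185 in TBI) and the largest in E4/Abca1+/- mice (1.335 and 1.121). The difference in E3/Abca1+/- mice (1.402 and 1.193) was of nearly the same size, and genotypes were not tested against each other. The E4/Abca1+/- TBI mean includes replicate 6, at 1.31. The place of the ratio relative to 1 depends on the transcript length used. For *Bace1* the median of 5049.5 bases was used, and its longest coding transcript of 6058 bases would lower every ratio by the same factor.

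**Figure D3:**
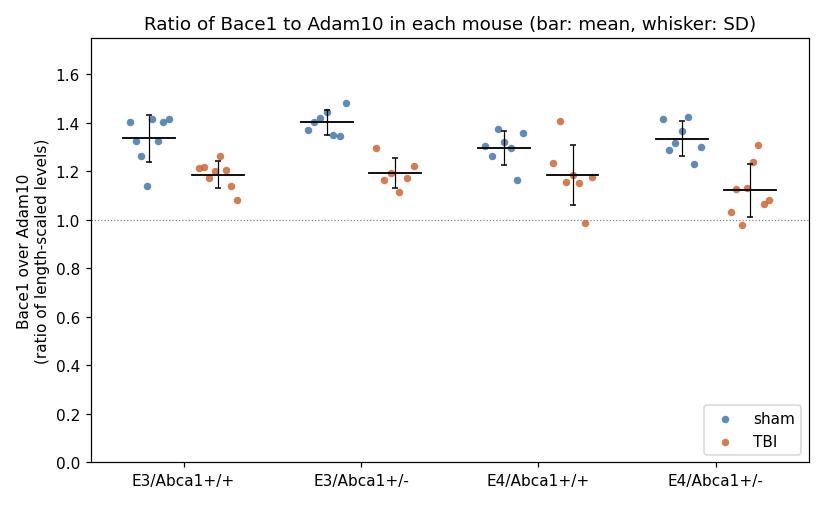
Ratio of *Bace1* to *Adam10* (vertical axis, length-scaled levels, no unit) in each mouse by genotype, sham in blue and TBI in orange, with bars for means and whiskers for SD. The sham mice average 1.34 and the TBI mice 1.17, with overlapping ranges, and the dotted line marks equal levels by the median transcript length.

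Among the gamma-secretase genes, *Ncstn* (nicastrin, the subunit that receives substrates) had the smallest adjusted p-value. Over the 4 genotypes it rose by a log2 fold change of 0.11 (95% interval 0.08 to 0.15, adjusted p = 8.14e-07). In E4/Abca1+/- mice, sham levels were 69.7, 71.1 and 74.7 CPM and TBI levels 79.6, 81.8 and 88.0 CPM. All 8 injured mice exceeded every sham mouse, with a log2 fold change of 0.18 (95% interval 0.11 to 0.26, adjusted p = 0.000578). The other genotypes had log2 fold changes of 0.07 to 0.09, none of which passed, and sham and TBI mice overlapped in each.

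*Psen2*, a presenilin and so a catalytic subunit, rose over the 4 genotypes by 0.14 (log2, 95% interval 0.07 to 0.22, adjusted p = 0.00115). In E4/Abca1+/- mice, sham levels were 14.0, 14.9 and 15.8 CPM and TBI levels 16.5, 17.2 and 19.7 CPM. All 8 injured mice exceeded every sham mouse (log2 fold change 0.22, adjusted p = 0.00378), although the call was lost when libraries were thinned to the lowest total (adjusted p = 0.185). In E3/Abca1+/- mice the log2 fold change was -0.01 (95% interval -0.13 to 0.12).

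*Psenen* and *Aph1a* had the lowest read counts of the pathway genes. *Psenen*, which completes the active complex, had 2.72, 3.61 and 5.48 CPM in sham mice and 2.24, 4.0 and 5.48 CPM in TBI mice (lowest, median and highest, n = 29 each), with the ranges overlapping almost fully. Its log2 fold change over genotypes was 0.17 (95% interval 0.03 to 0.32, adjusted p = 0.0355). This call was lost with DESeq2's size factors (adjusted p = 0.0522), after thinning (adjusted p = 0.315) and without E4/Abca1+/- TBI replicate 8 (adjusted p = 0.0523). That library had low summed levels of hippocampal markers (303 CPM, others of its group 449 to 533 CPM) and high levels of striatal markers (455 CPM, others 75.4 to 101 CPM), and the part of this in the result was not tested. *Aph1a*, a scaffold subunit, had a log2 fold change of 0.09 (95% interval -0.05 to 0.22, adjusted p = 0.289).

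The degrading peptidases did not pass in any genotype. *Ide* had 58.3 ± 4.02 CPM in sham mice and 58.2 ± 4.54 CPM in TBI mice (SD, n = 29 each), with a log2 fold change of 0.00 (95% interval -0.06 to 0.05, adjusted p = 0.955), the narrowest interval around 0 of those not called. *Mme* had 9.24 ± 1.51 CPM in sham and 9.18 ± 2.29 CPM in TBI mice, with a log2 fold change of -0.01 (95% interval -0.16 to 0.14, adjusted p = 0.913). For *Mme* the interval still allows a change from -10.7% to 10.2%.

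**Figure D4:**
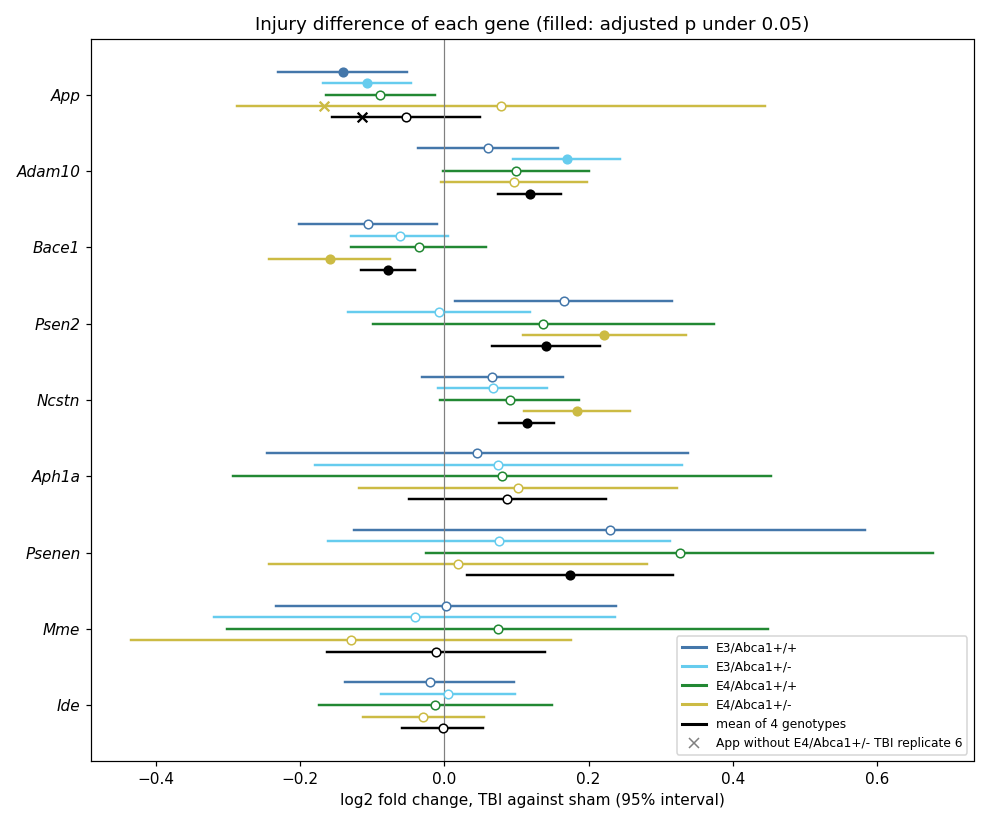
Log2 fold change of TBI against sham (horizontal axis) for each of the 9 genes, as points with 95% intervals for the 4 genotypes and, in black, their mean, filled where the adjusted p is under 0.05. Crosses mark *App* without E4/Abca1+/- TBI replicate 6, at -0.17 within E4/Abca1+/- mice and -0.11 in the mean.

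Counted by genotype, 1 of the 9 genes was higher in E3/Abca1+/- mice (13.7% of all genes) and 1 lower (10.1%). In E3/Abca1+/+ mice 0 were higher (12.5%) and 1 lower (10.8%). In E4/Abca1+/- mice 2 were higher (17.7%) and 1 lower (16.3%), or 3 and 2 without replicate 6 (18.7% and 16.7% of all genes). In E4/Abca1+/+ mice edgeR called 0 of 9 genes (9.08% of all genes higher, 4.98% lower), as did DESeq2's Wald test, and 1 gene (*App*) had an unadjusted p under 0.05, against 27.1% of all genes. The number of genes called thus ranged from 0 to 3 with the genotype, but differences between genotypes in the injury response were not shown. In the 4 interaction tests, 0 of 9 genes passed in edgeR or DESeq2, as did 0.0% of all genes in edgeR. At an unadjusted p under 0.05, 1 of 9 genes (*Psen2*) had an *Abca1* by injury interaction in *APOE3* mice (2.15% of all genes) and 0 in *APOE4* mice (4.84%). The isoform by injury interaction had 2 such genes in Abca1+/- mice (6.34% of all genes) and 0 in Abca1+/+ mice (2.12%). The 2 were *Psen2* (log2 difference 0.25, 95% interval 0.10 to 0.41, adjusted p = 0.722) and *Ncstn* (log2 difference 0.14, 95% interval 0.05 to 0.24, adjusted p = 0.722), both larger after injury in *APOE4* mice.

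The second comparison asked whether 1 copy of *Abca1* changed these genes. Within the 4 settings, edgeR called 0 of 9 genes in *APOE3* sham (2.2% of all genes), *APOE3* TBI (0.178%), *APOE4* sham (0.903%) and *APOE4* TBI mice (1.39%), and DESeq2's Wald test also called 0 in each. At an unadjusted p under 0.05 there were 2 genes in *APOE3* sham mice (*Adam10* and *Psen2*, against 16.5% of all genes), 0 in *APOE3* TBI mice (8.99%), 0 in *APOE4* sham mice (15.7%) and 1 in *APOE4* TBI mice (*Bace1*, 18.2%). A single edgeR fit over all 58 mice did call *Bace1* in *APOE4* TBI mice, along with 1359 of all 15171 genes. Averaged over isoform and injury, 1 of 9 genes was called, as were 17.9% of all genes. This was *Mme*, at 5.34, 9.74 and 14.2 CPM in 30 Abca1+/+ mice and 5.09, 8.18 and 11.3 CPM in 28 Abca1+/- mice. The ranges overlapped widely, and the log2 fold change was -0.21 (95% interval -0.36 to -0.06, adjusted p = 0.042). The call was lost after thinning (adjusted p = 0.101), without E4/Abca1+/- TBI replicate 6 (adjusted p = 0.0601) and without E4/Abca1+/- sham replicate 2 (adjusted p = 0.0565), a library with 693 CPM of summed microglial markers against 431 to 544 CPM in the others of its group.

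The third comparison asked whether the *APOE* isoform mattered. In Abca1+/- TBI mice, 1 of 9 genes differed between *APOE4* and *APOE3* (2.9% of all genes). This was *Ncstn*, at 67.5, 72.3 and 74.9 CPM in 6 *APOE3* mice and 79.6, 81.8 and 88.0 CPM in 8 *APOE4* mice. The groups did not overlap, and the log2 fold change was 0.19 (95% interval 0.11 to 0.27, adjusted p = 0.013), although thinning to the lowest total gave an adjusted p of 0.0536. These groups also differed in summed microglial markers, at 943, 1133 and 1403 CPM in the *APOE3* and 1153, 1582 and 1976 CPM in the *APOE4* mice. The part of this in the *Ncstn* difference was not tested. EdgeR and DESeq2 called 0 of 9 in Abca1+/- sham (5.13% of all genes in edgeR), Abca1+/+ sham (0.349%) and Abca1+/+ TBI mice (0.211%). At an unadjusted p under 0.05 there were 2 in Abca1+/- sham mice (*Psen2* and *Ncstn*, against 23.2% of all genes), 0 in Abca1+/+ sham mice (8.75%) and 0 in Abca1+/+ TBI mice (7.2%). Averaged over *Abca1* and injury, 2 of 9 genes were called (15% of all genes), *Ncstn* higher in *APOE4* mice by 0.09 (log2, adjusted p = 0.000291) and *Bace1* lower (log2 fold change -0.06, adjusted p = 0.0343). *Ncstn* had 71.5 ± 4.17 CPM in *APOE3* and 76.4 ± 5.63 CPM in *APOE4* mice, and *Bace1* 136 ± 7.05 and 130.2 ± 7.99 CPM (SD, n = 29 each).

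By sex, 1 of 9 genes differed over the 8 groups (10.1% of all genes). *Psenen* was higher in the 28 females (2.66, 4.09 and 5.48 CPM) than in the 30 males (2.24, 3.49 and 5.48 CPM), by a log2 fold change of 0.21 (95% interval 0.08 to 0.34, adjusted p = 0.0326). In the injury by sex interaction 0 of 9 genes passed (0.0% of all genes) in edgeR and DESeq2, and 0 had an unadjusted p under 0.05 (7.47% of all genes).

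The injury also shifted the makeup of the transcripts in the tissue. Of the neuronal markers 10 of 12 fell, and their summed level was 10206 to 11434 CPM in sham mice and 7633 to 10298 CPM in TBI mice. All 11 of 11 microglial markers rose, from 419 to 693 CPM in sham to 811 to 1976 CPM in TBI mice, without overlap. All 8 of 8 astrocyte markers rose (5514 to 7052 CPM in sham, 6912 to 11142 CPM in TBI mice). 5 of 6 endothelial markers and both listed leukocyte markers (2 of 6 in the table) rose. Of the oligodendrocyte markers 2 of 7 rose and 1 fell, of the thalamic markers 4 of 5 rose and 1 fell, of the hippocampal markers 1 of 7 rose and 2 fell, of the striatal markers 1 of 6 rose, and of the cortical layer markers 4 of 6 fell, beside 29% of all genes higher and 24.3% lower. The summed level of the 6 choroid plexus markers was 9.88 to 1342 CPM in sham and 10.2 to 2045 CPM in TBI mice. The part of these shifts in the differences of the 9 genes was not tested.

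Among the 29 injured mice, 18 relations were computed, between each of the 9 genes and the neuronal and microglial marker scores, with levels as log2(CPM + 1) centred on the mean of each genotype. *Ncstn* was higher in mice with more microglial signal (Pearson r = 0.69, permutation p = 0.0001, adjusted over the 18 relations 0.0018; Spearman rho = 0.66, permutation p = 0.0004, adjusted 0.0036). Leaving out the 2 mice with the most extreme scores gave r = 0.62, and r was 0.47 within Abca1+/- and 0.80 within Abca1+/+ mice. *Bace1* had the opposite relation (r = -0.63, permutation p = 0.00146, adjusted 0.0131, and rho = -0.50, permutation p = 0.0104, adjusted 0.047), with r = -0.60 once the 2 most extreme mice were left out, -0.56 within Abca1+/- and -0.67 within Abca1+/+ mice. Without E4/Abca1+/- TBI replicate 6, the relation of *Bace1* passed by r (-0.62, permutation p = 0.00192, adjusted 0.0115) and no longer by rank (rho = -0.48, permutation p = 0.0163, adjusted 0.0735). *App* followed the neuronal markers. Its r was 0.51 with all mice (permutation p = 0.0145, adjusted 0.0436, rho = 0.66, permutation p = 0.00013, adjusted 0.00234) and 0.81 over the 28 mice without replicate 6 (permutation p = 2e-05, adjusted 0.00036, rho = 0.71, permutation p = 6e-05, adjusted 0.00108). Over these 28, r was 0.72 with the 2 most extreme mice left out, 0.80 within Abca1+/- and 0.83 within Abca1+/+ mice.

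*Adam10* (r = -0.56, permutation p = 0.00415, adjusted 0.0187), *Ncstn* (r = -0.57, permutation p = 0.00248, adjusted 0.0149) and *Ide* (r = -0.51, permutation p = 0.00604, adjusted 0.0217) were lower in mice with more neuronal signal. By rank, that of *Ncstn* passed (rho = -0.52, permutation p = 0.0062, adjusted 0.0372), and those of *Adam10* (rho = -0.42, permutation p = 0.0379, adjusted 0.114) and *Ide* (rho = -0.37, permutation p = 0.0644, adjusted 0.145) did not. With the 2 most extreme mice left out, r was -0.61 for *Adam10*, -0.59 for *Ncstn* and -0.51 for *Ide*. Within Abca1+/- and Abca1+/+ mice r was -0.74 and -0.39 for *Adam10*, -0.26 and -0.77 for *Ncstn*, and -0.56 and -0.54 for *Ide*. Each library carries its own dissection and depth, so each r describes joint variation only. The other 12 relations had adjusted p-values of at least 0.186 for r and 0.095 for rho.

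**Figure D5:**
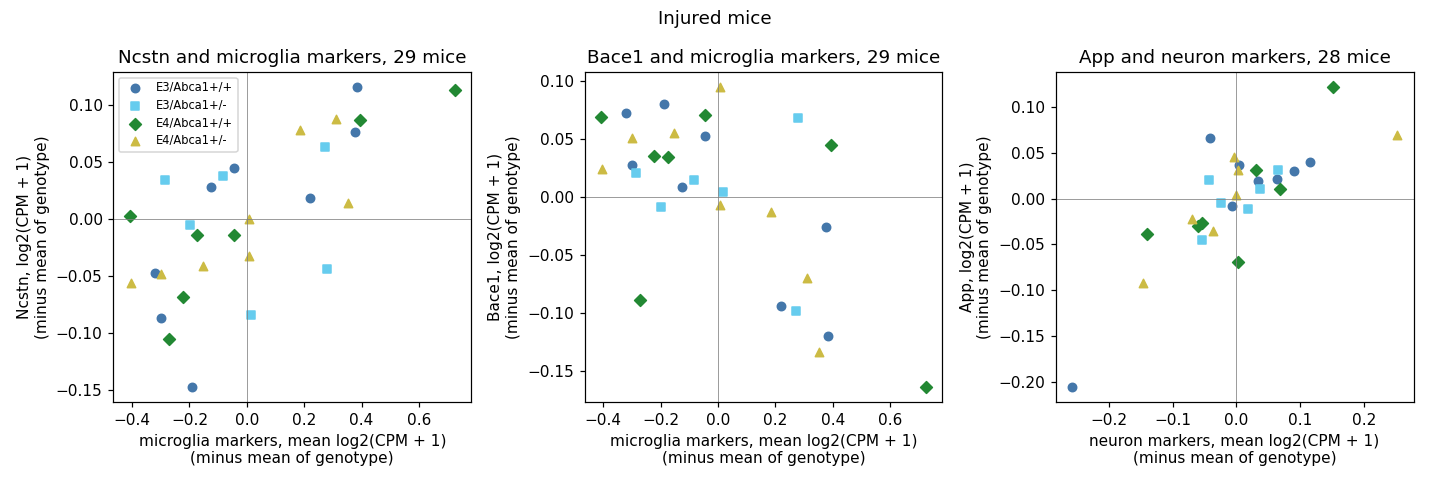
Level of *Ncstn*, *Bace1* and *App* (vertical axes, log2(CPM + 1) minus the genotype mean) against marker scores (horizontal axes, mean log2(CPM + 1) minus the genotype mean) in injured mice, with 1 colour and symbol per genotype. *Ncstn* rises and *Bace1* falls with the microglial score (r = 0.69 and -0.63, 29 mice), and *App* rises with the neuronal score (r = 0.81, 28 mice, without E4/Abca1+/- TBI replicate 6).

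Correlations within groups over all mice, given as description, were modest among the 9 genes themselves. Over 57 mice, centred on the 8 group means and without replicate 6, the highest r was 0.55 between *Adam10* and *Ide*, followed by 0.35 between *App* and *Bace1*. The lowest was -0.48 between *App* and *Ide*. *Psen2* and *Ncstn*, parts of the same complex, had r = 0.24, and *Ncstn* and *Psenen* had r = -0.17.

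The genes whose levels ran most like each member over the 58 mice were, for *App*, *Prnp* (r = 0.94) and *Ighg2c* (r = 0.82). Without replicate 6 the r of *App* was 0.29 with *Prnp* and -0.08 with *Ighg2c*, and the 2 nearest genes were *Clvs2* (r = 0.74) and *Rtn1* (r = 0.73). For *Adam10* they were *Klhl24* and *Cdk12* (r = 0.72 each), and for *Bace1* *Ncoa1* (r = 0.68) and *Mapk8ip3* (r = 0.64). *Ncstn* ran most like *Tpp1* (r = 0.64) and *Lgmn* (r = 0.63), which encode lysosomal proteases, and *Psen2* like *Tex264* (r = 0.58) and *Cdip1* (r = 0.57). For *Mme* they were *Rxfp1* and *Trim66* (r = 0.80 each), and for *Ide* *Qk* (r = 0.73) and *Lats1* (r = 0.71). *Aph1a* (*Cfap57* and *Trnt1*, r = 0.51 each) and *Psenen* (*Mxra7*, r = 0.57, and *Rps10*, r = 0.56) had the weakest such neighbours. These are the highest of all genes with a mean of at least 1 CPM and carry no test. By rank over the same 58 mice the nearest pair differed for each member. Neither gene named here for *Ncstn* was in its pair by rank.

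Lists of related genes place the 9 members in the wider pathway, each counted in the mean of the 4 genotypes, where 29% of all genes rose and 24.3% fell, with a median of 0.01 on the log2 scale. The lists were chosen with earlier results of these data known. The part of the shifted makeup of the tissue in their changes was not tested. Of the *App* relatives and the adaptors that bind their tails, 5 of 8 fell and 0 rose (median log2 fold change -0.11). *Apbb1*, which binds the APP tail, had 503 ± 25.4 CPM in sham and 437 ± 25 CPM in TBI mice (log2 fold change -0.20, SE 0.02, adjusted p = 2e-12). *Apba1*, a synaptic adaptor, fell as well (log2 fold change -0.18, SE 0.03, adjusted p = 2.87e-06).

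Of the other secretases and subunits, 2 of 5 rose and 0 fell (median 0.01). *Bace2*, a relative of *Bace1*, had 3.52 ± 1.09 CPM in sham and 6.73 ± 2.18 CPM in TBI mice (log2 fold change 0.89, SE 0.11, adjusted p = 5.38e-10). *Adam17*, the sheddase of tumour necrosis factor, had 17.1 ± 1.66 and 26.4 ± 5.63 CPM (log2 fold change 0.60, SE 0.06, adjusted p = 2.04e-13). Both changes were larger than those of *Bace1* and *Adam10*, in each case on the scale of log2 fold change, though the difference between genes was not tested.

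Among regulators and trafficking genes, 6 of 15 rose and 6 fell (median 0.00). *Gsap*, the gamma-secretase activating protein, had 6.00 ± 0.768 CPM in sham and 10.9 ± 2.61 CPM in TBI mice (log2 fold change 0.84, adjusted p = 3.52e-16). *Timp3*, an inhibitor of metalloproteinases, also rose (log2 fold change 0.31, adjusted p = 1e-05). *Sorl1*, a sorting receptor for APP, had 299 ± 41.9 CPM in sham and 213 ± 36.3 CPM in TBI mice (log2 fold change -0.48, adjusted p = 2.14e-10). *Tspan5*, a tetraspanin that carries ADAM10 to the surface, fell too (log2 fold change -0.27, adjusted p = 2.75e-12).

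Of the other degrading or clearing genes, 9 of 15 rose and 3 fell (median 0.24). *A2m*, a protease inhibitor that binds amyloid-beta, had 5.04 ± 5.01 CPM in sham and 106 ± 83.8 CPM in TBI mice (log2 fold change 4.37, adjusted p = 2.58e-19). *Ctsd*, a lysosomal protease, had 399.9 ± 68.2 and 1369 ± 602 CPM (log2 fold change 1.73, adjusted p = 3.48e-20). *Mmel1*, a relative of *Mme*, fell (log2 fold change -0.34, adjusted p = 0.0127). Its level was low, at 1.31 ± 0.351 CPM in sham and 1.05 ± 0.538 CPM in TBI mice. *Ece1*, an endothelin-converting enzyme, fell as well (log2 fold change -0.16, adjusted p = 6.93e-05). Of the secretase substrates 4 of 14 rose and 6 fell (median -0.06). *Notch2* (log2 fold change 0.50, adjusted p = 3.88e-11) and *Notch1* (0.26, adjusted p = 0.00013), receptors cut by gamma-secretase, rose, and *Nrg1*, a growth factor cut by BACE1 (-0.27, adjusted p = 7.95e-05), and *Epha4*, an ephrin receptor (-0.26, adjusted p = 7.88e-06), fell.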

How the data were processed

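Read counts per gene, whole numbers without normalization, were deposited by the authors as 1 table of 58 mice. Per the study's methods they aligned and counted reads with Subread/featureCounts 1.5.0, and the submitters' processing notes name mm10. The gene annotation and strand setting are not given in the sources used here. Every listed gene had over 1 CPM in at least 6 mice, so rarer genes were not analysed here. Of its lines 2 were blank and were dropped, and 23 symbols stored as dates were restored from identifiers.

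Counts were scaled with TMM factors (0.954 to 1.038). EdgeR 4.0.16 (R 4.3.3) quasi-likelihood tests used the mice of the groups compared, or all 58 for means over groups, and filterByExpr over the 8 groups kept all 15171 genes. P-values were Benjamini-Hochberg adjusted over all genes. Fold changes are fitted log2 values with their 95% intervals. On simulated counts of 15171 genes for an injury comparison the test was checked for recovery of known changes. Neither the sizes of those changes nor the outcome is given here. The check therefore does not show how well the test finds changes as small as those reported for the pathway genes. Coordinates, exon overlaps and transcript lengths came from GENCODE M21 (GRCm38, release number 21), which gave lengths to 93.4% of genes. Correlations used log2(CPM + 1) and 100000 permutations within genotype in Python 3.11.15 (numpy 2.4.6, scipy 1.17.1). The depth behind each value is the total count per mouse.

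Named were the 9 members, the 2 genes most like each over 58 mice, the 2 largest rises and falls called per pathway list, and *Abca1*. *Prnp*, *Clvs2* and *Rtn1* were named after their values were seen. Members and lists were chosen with earlier results of these data known. Alternatives were DESeq2 1.42.0 size factors or Wald test, no filter or at least 1 CPM in at least 6 mice, sex as a term, 1 fit of all mice, thinning to 4421308 counts and the unadjusted p. Since filterByExpr kept all genes, the fits with no filter repeat the main fits and could not differ. For means over groups, the filter of at least 1 CPM also kept all 15171 genes. Fits without 3 libraries were chosen after seeing the data. Replicates were separate mice. No pair of libraries had identical counts (0 pairs).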

Additional observations from a re-analysis of the deposited data

Results flagged for a closer look

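In 72 groups of a gene tested for a mouse far from the others of its group, 5 values stood out, where chance flags about 1 in 20. *App* in E4/Abca1+/- TBI replicate 6 was 4854 CPM, above 1829.7 to 2047 CPM in the other 7 mice. *App* in E3/Abca1+/+ TBI replicate 8 was 1673 CPM, below 1918 to 2021 CPM. *Adam10* in E3/Abca1+/+ TBI replicate 4 was 94.1 CPM, below 100.4 to 105 CPM. *Psenen* in E3/Abca1+/+ sham replicate 5 was 5.48 CPM, above 2.72 to 3.93 CPM, and *Ide* in E4/Abca1+/+ sham replicate 4 was 47.3 CPM, below 57.1 to 63.0 CPM. No interaction test passed the threshold for any of the 9 genes.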

How the results depend on the processing

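Of 212 recomputed counts and levels, 182 stayed within the limits set for no change. Fits with no filter could not change any count, since the main filter removed no gene. A single fit over 58 mice called 1 of 9 genes in E3/Abca1+/- TBI against sham (3046 of all 15171 genes) and 0 in E3/Abca1+/+ (4031). It called 1 (*Bace1*) for *Abca1* in *APOE4* TBI mice (1359 of all genes). Thinning called 1 in E4/Abca1+/- TBI against sham (3647 of 14048 genes tested), 0 for isoform in Abca1+/- TBI (207) and 0 for *Abca1* over all groups (1748). For the last, DESeq2 called 2 (2716 of 15171 genes with its size factors, 2857 with its Wald test). Without single libraries, E4/Abca1+/- TBI against sham ranged from 3 to 5 genes (5100 to 5489 of all 15171 genes) and the mean over genotypes from 4 to 6 (8080 to 8185). *Abca1* over all groups ranged from 0 to 1 (2456 to 2751 of all genes) and sex from 1 to 2 (1409 to 2083). At an unadjusted p under 0.05 there were 3 genes in E3/Abca1+/+ (35.3% of all genes) and 1 in E4/Abca1+/+ TBI against sham (27.1%). For *Abca1* there were 2, 0, 0 and 1 in the 4 settings (16.5%, 8.99%, 15.7% and 18.2%) and 3 over all groups (30.2%). For isoform there were 2 in Abca1+/- sham (23.2%) and 2 in Abca1+/- TBI mice (18.7%). The *Abca1* (E3) and isoform (Abca1+/-) interactions had 1 (2.15%) and 2 (6.34%), and sex had 3 (25.9%). By the longest transcript, levels were 817 TPM for *App*, 67.4 for *Adam10*, 25.5 for *Psen2*, 81.4 for *Ncstn*, 3.66 for *Mme* and 37.5 for *Ide*, which puts *Ncstn* above *Bace1* and *Aph1a* above *Mme*. *App* with *Prnp* had rho = 0.58 by rank with replicate 6 included, and r = 0.29 without it. For the rank value, levels were centred on group means that include replicate 6, and no rank value without it is given. Among 404 recomputed fold changes of named members 1 reversed (*App* in E4/Abca1+/- mice, -0.17 without replicate 6 to 0.10 without replicate 8), 11 lost and 3 gained the call. No paired analysis was possible because the labels give animal numbers that are not shared between groups. Depth limits *Psenen*, *Aph1a* and *Mme*, and splice forms, protein levels and peptide were not analysed here.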
